A study of Homo sapiens with 8 samples.

Results

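The genes described here are the transcriptional coactivators YAP (YAP1) and TAZ (WWTR1), their DNA-binding partner TEAD1, and 7 of their known target or feedback genes: AMOTL1, AMOTL2, LATS2, CTGF (now CCN2), CYR61 (now CCN1), ANKRD1 and FJX1. They were taken as every probe of the deposited table that carries one of these gene symbols, which gave 10 of 31426 genes and 12 of 47322 probes. CTGF and TEAD1 have a second probe each. RNA of 2 human neuroblastoma cell lines was hybridised to 8 bead arrays (Illumina HumanHT-12 v4). SH-SY5Y cells are neuroblastic and SH-EP2 cells are epithelial-like, and both were derived from the same parental tumour line. Cells of either line were lentivirally transduced with a scrambled shRNA, the control of this study, or with a TRPM7 shRNA, with 2 arrays in each of the 4 groups. TRPM7 is a cation channel fused to a protein kinase. All cells grew in serum-containing medium, but per the study's methods the 2 lines grew in different media. The arrays hold a single TRPM7 shRNA, so that on these arrays off-target action of that hairpin and loss of TRPM7 cannot be told apart. The replicates are numbered, but nothing says that they came from separate cultures, and p-values then measure the spread between these samples only.

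YAP and TAZ carry no DNA-binding domain of their own and act in the nucleus through TEAD transcription factors. The Hippo kinase cascade, in which MST kinases activate LATS kinases, phosphorylates YAP and TAZ and keeps them in the cytoplasm, so that their activity is set largely by phosphorylation and location rather than by the amount of their mRNA. Cell density, matrix stiffness and actomyosin tension, all of which bear on cell adhesion and migration, feed into the pathway. CTGF, CYR61 and ANKRD1 are its most used transcriptional readouts, while LATS2 and the angiomotins AMOTL1 and AMOTL2 are targets that in turn restrain YAP and TAZ.

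TEAD factors bind the motif GGAATG, and 4 promoters are shown as examples of target genes that hold it 3, 2, 1 and 0 times. RefSeq promoter windows (GRCh38.p14, 250 bases before to 50 after a transcription start) matched 8 of the 10 genes with 10 windows. No window was matched for CYR61 and TEAD1. Below, the 250 bases before the start are given 5′ to 3′ on the strand of the gene, with GGAATG or its reverse complement CATTCC, and the AP-1 motif TGANTCA, in capitals.
CTGF: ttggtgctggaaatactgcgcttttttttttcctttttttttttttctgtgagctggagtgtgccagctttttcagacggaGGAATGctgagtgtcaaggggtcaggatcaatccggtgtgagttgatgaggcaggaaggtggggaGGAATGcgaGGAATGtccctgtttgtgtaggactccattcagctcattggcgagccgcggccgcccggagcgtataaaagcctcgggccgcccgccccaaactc
ANKRD1: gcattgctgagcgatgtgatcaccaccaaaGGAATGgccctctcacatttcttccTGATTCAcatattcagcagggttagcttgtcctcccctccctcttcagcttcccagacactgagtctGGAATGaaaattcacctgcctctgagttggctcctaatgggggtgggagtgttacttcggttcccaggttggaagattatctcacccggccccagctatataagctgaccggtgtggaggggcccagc
AMOTL2 (second of 2 windows): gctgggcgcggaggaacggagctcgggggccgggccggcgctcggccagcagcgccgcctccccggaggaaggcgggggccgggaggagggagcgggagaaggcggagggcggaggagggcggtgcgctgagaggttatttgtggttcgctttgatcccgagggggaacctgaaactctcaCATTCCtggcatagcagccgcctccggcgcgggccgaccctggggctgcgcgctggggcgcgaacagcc
FJX1: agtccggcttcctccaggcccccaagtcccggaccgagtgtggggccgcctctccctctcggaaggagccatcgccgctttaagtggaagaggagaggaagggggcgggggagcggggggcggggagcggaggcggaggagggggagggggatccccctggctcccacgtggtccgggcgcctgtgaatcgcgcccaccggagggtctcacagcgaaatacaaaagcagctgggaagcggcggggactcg
These stretches lie at chr6:131951373-131951622 (CTGF), chr10:90921088-90921337 (ANKRD1) and chr3:134374448-134374697 (AMOTL2) on the minus strand, and at chr11:35618210-35618459 (FJX1) on the plus strand. In the CTGF window GGAATG was found 3 times, starting 169, 104 and 95 bases before the transcription start. ANKRD1 held it 2 times, 220 and 128 bases before the start, with 1 AP-1 motif between them, 195 bases before the start. AMOTL2 held 1 match in its second window and 0 in its first, YAP1 held 1 and LATS2 held 1 just past its start, whereas FJX1, AMOTL1 and both WWTR1 windows held 0. Of 35116 windows of the same length in RefSeq, 14% held at least 1 match on either strand, 1.37% at least 2 and 0.128% at least 3, while 7.71% held an AP-1 motif. Of the 16 further target genes described below, 11 matched a window and 5 held a match. A match is a description of these letters and not a measured binding site, and no relation of matches to expression was tested.

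Signals on the arrays are normalized log2 values, and a probe was taken as detected where the deposited detection p-value was under 0.05. Between 19331 and 20904 of the 47322 probes were detected per array, replicate arrays correlated with an r of 0.981 to 0.985 over all probes, and precision is limited by having 2 arrays a group. The only TRPM7 probe was below detection on all 8 arrays (detection p 0.0753 to 0.201), so that the knockdown itself could not be checked here. Differences were tested with limma over all probes, and a gene was called where its brightest probe had a Benjamini-Hochberg adjusted p under 0.05. Fitted folds between a measured group and a group in which neither array detected the probe are replaced by bounds, written as "at least". These bounds hold for background-corrected signals, and the sizes given below for WWTR1, LATS2, ANKRD1 and the second CTGF probe were smaller without that correction. The same held for the difference of the first CTGF probe between the lines.

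Most members were expressed more strongly in SH-EP2 than in SH-SY5Y cells, by 1.83-fold for FJX1 up to 210.2-fold for CTGF among those detected in both lines. The fold of CTGF was smaller without background correction (log2 difference 5.15). With scrambled shRNA in both lines, 7 of the 10 members were called higher in SH-EP2 and 0 lower. Among all 31426 genes 14.2% were called higher in SH-EP2, and among the 17265 genes detected on at least 2 arrays 25.3%. The median log2 difference was 1.91 over the 10 members and -0.02 over all genes. Every array of SH-EP2 control cells lay above both arrays of SH-SY5Y control cells for each of the 7. In such bulk samples, fewer expressing cells and less RNA per cell cannot be told apart, and culture and cell line cannot be told apart either.

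**Figure D1:**
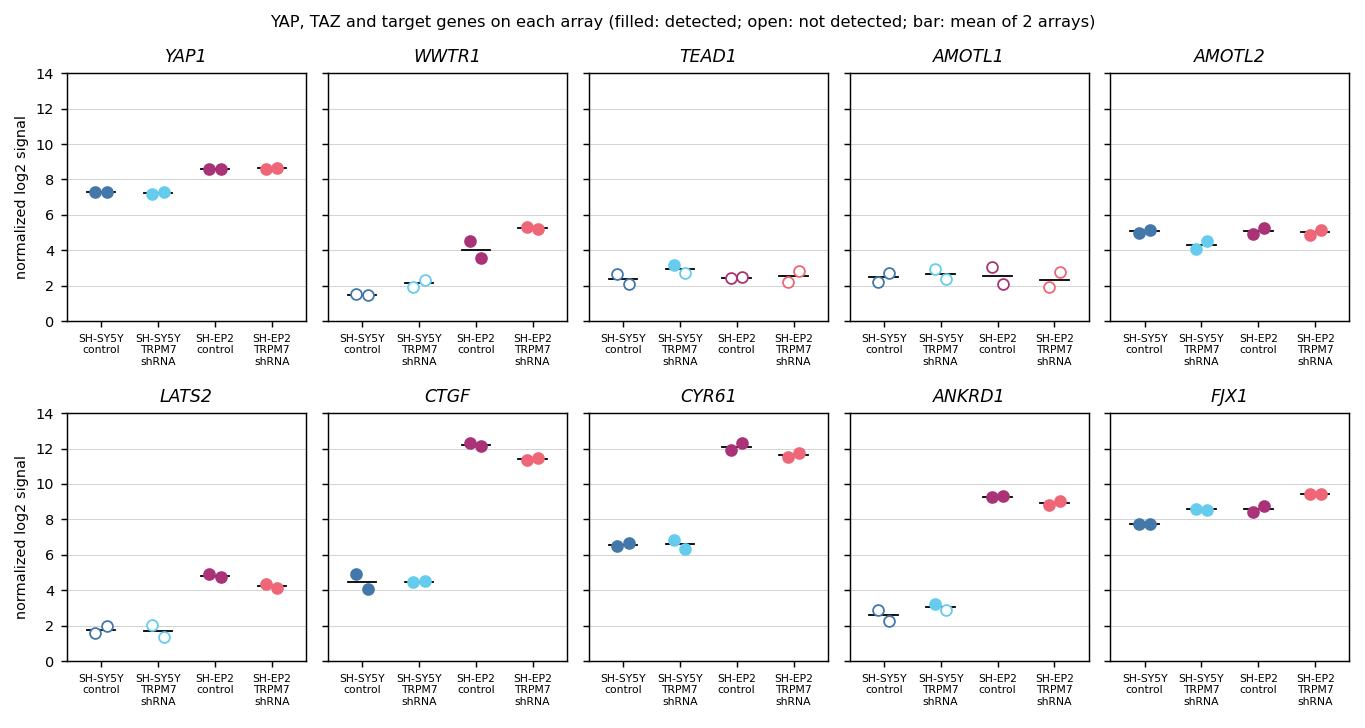
Normalized log2 signal (vertical axis) of the brightest probe of each of the 10 members on each of the 8 arrays, grouped by cell line and shRNA; filled points were detected, open points were not, and the bar is the mean of 2 arrays. CTGF, CYR61 and ANKRD1 stand between 8.80 and 12.3 on the SH-EP2 arrays and at 6.84 or lower on the SH-SY5Y arrays, and FJX1 is higher with TRPM7 shRNA in both lines.

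Of the coactivators, YAP1 was detected on all 8 arrays. Its log2 signal was 7.31 and 7.30 in SH-SY5Y control cells and 8.61 and 8.57 in SH-EP2 control cells, a difference of 1.29 (SE 0.13, adjusted p = 6.59e-08) or 2.44-fold. TAZ (WWTR1) was below detection on the 4 SH-SY5Y arrays, with signals of 1.53 and 1.48 in control cells, and it was detected but dim on all SH-EP2 arrays, with 4.51 and 3.55 in control cells. It was thus at least 1.83-fold higher in SH-EP2 (adjusted p = 0.000315), whereas without background correction the log2 difference was 0.38. Both coactivators were therefore brighter in the epithelial-like line, with TAZ measurable in that line only. TEAD1, which tethers both proteins to DNA, was not detected in control cells of either line by either of its probes, so that no fold is given.

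The secreted matricellular proteins CTGF and CYR61 showed the widest separation among members detected in both lines. CTGF measured 4.91 and 4.07 in SH-SY5Y control cells and 12.29 and 12.12 in SH-EP2 control cells, 7.72 higher on the log2 scale (SE 0.19, adjusted p = 2.9e-17) or 210.2-fold (95% confidence interval 160.6 to 275.1). In the signals as deposited this was 143.8 and 116.6 against 5150 and 4225. The second CTGF probe was not detected in SH-SY5Y cells and was at least 932.6-fold brighter in SH-EP2 (adjusted p = 3.89e-20). Without background correction the log2 differences were 5.15 for the first probe and 6.17 for the second. CYR61 measured 6.48 and 6.65 against 11.91 and 12.30, which is 46.5-fold higher in SH-EP2 (adjusted p = 1.66e-16).

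ANKRD1, a nuclear ankyrin-repeat protein, was not detected in SH-SY5Y control cells (2.91 and 2.24) and measured 9.25 and 9.32 in SH-EP2 control cells, at least 69.7-fold higher (adjusted p = 9.57e-15). Without background correction ANKRD1 was 2.70 higher on the log2 scale. The feedback kinase LATS2 was likewise not detected in SH-SY5Y cells (1.57 and 1.97) and dim in SH-EP2 control cells (4.89 and 4.77), at least 3.19-fold higher (adjusted p = 3.07e-05), and 0.45 higher on the log2 scale without background correction. FJX1, a secreted Golgi-associated protein related to the Drosophila planar polarity factor four-jointed, was detected in both lines. Its signals were 7.72 and 7.74 against 8.44 and 8.76, a 1.83-fold difference (adjusted p = 8.27e-06). The 2 angiomotin-like genes did not follow this order. AMOTL2 measured 5.0 and 5.15 in SH-SY5Y and 4.92 and 5.25 in SH-EP2 control cells, with overlapping arrays (log2 difference 0.01, 95% confidence interval -0.60 to 0.63). AMOTL1 was not detected on any array.

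The cell lines were checked against markers. Of 10 noradrenergic markers of neuroblastic cells, such as DBH, 9 were lower in SH-EP2, and their summed linear signal was 31017 and 31028 in SH-SY5Y control cells against 66.5 and 72.0 in SH-EP2 control cells. Of 10 mesenchymal markers 9 were higher in SH-EP2 (summed signal 25235 and 25250 against 67605 and 68042), and VIM was lower. Of 9 defining markers of leukocytes, endothelium, epithelium and Schwann cells, CDH5, KRT5 and SOX10 were not detected on any array. CD68, the brightest of the 9, was detected on all 8 arrays and was not called. It measured 7.75 and 7.61 in SH-SY5Y and 7.63 and 7.26 in SH-EP2 control cells. A second CD68 probe was brighter in SH-EP2 (6.49 and 5.80 against 8.21 and 8.25). PTPRC (at least 1.19-fold), PECAM1 (at least 4.41-fold) and LYZ (log2 difference 1.85) were higher in SH-EP2. The summed signal of all 9 markers was 229.9 and 254.1 in SH-SY5Y against 248.1 and 301.9 in SH-EP2 control cells. The part of these markers in the result was not tested.

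**Figure D2:**
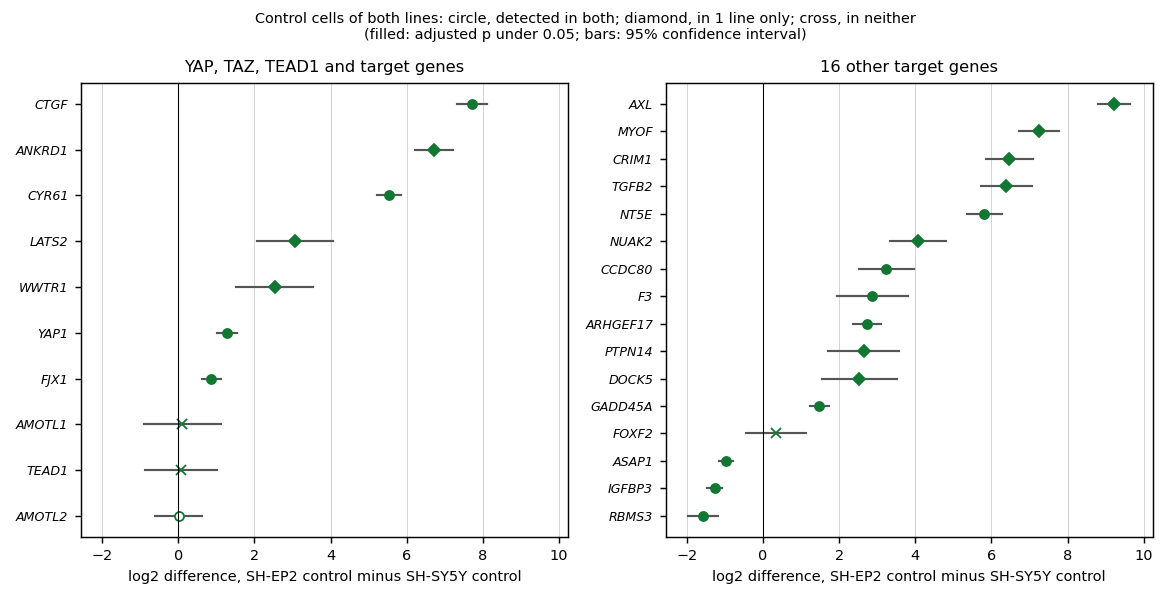
Log2 difference between control cells of the lines (horizontal axis, SH-EP2 minus SH-SY5Y) with its 95% confidence interval, for the 10 members (left) and 16 other target genes (right); circles were detected in both lines, diamonds in 1 line and crosses in neither, and filled symbols passed an adjusted p of 0.05. CTGF, ANKRD1 and CYR61 lead the members with fitted differences of 7.72, 6.71 and 5.54, of which that of ANKRD1 is not a measured size because the gene was not detected in SH-SY5Y control cells.

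On TRPM7 knockdown in SH-EP2 cells, CTGF fell and FJX1 rose, and the other 8 members did not pass the test. These 2 called members of 10 stand beside 3.67% of all genes and 6.64% of the genes detected on at least 2 arrays. The median log2 fold change was -0.14 over the members and 0.01 over all genes. Of the members, 4 had an unadjusted p under 0.05, namely CTGF, CYR61, FJX1 and WWTR1.

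CTGF measured 12.29 and 12.12 in SH-EP2 control cells and 11.34 and 11.48 with TRPM7 shRNA. The groups did not overlap, and CTGF fell 1.73-fold (95% confidence interval 1.32 to 2.27, log2 fold change -0.79, SE 0.19, adjusted p = 0.0202). The second CTGF probe, at 13.05 and 12.99 against 12.04 and 12.24, fell 1.85-fold (adjusted p = 0.00206). The call of the first probe was lost without any single one of the 4 SH-EP2 arrays, where the log2 fold change ranged from -0.89 to -0.71 and the adjusted p from 0.095 to 0.228. The second probe kept its call only without TRPM7 shRNA replicate 2 (-0.97, adjusted p = 0.0269), and without the others it measured -0.86 (control replicate 1, adjusted p = 0.0663), -0.92 (control replicate 2, adjusted p = 0.0518) and -0.79 (TRPM7 shRNA replicate 1, adjusted p = 0.0922).

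CYR61 and ANKRD1 lay on the same side as CTGF without passing the test. CYR61 measured 11.91 and 12.30 in control cells and 11.50 and 11.75 with TRPM7 shRNA, a log2 fold change of -0.48 (95% confidence interval -0.79 to -0.16, adjusted p = 0.110). Its size was -0.47 under normexp (adjusted p = 0.00827) and without background correction (adjusted p = 0.00721), where it passed. Its 4 arrays did not overlap, but the closest control and knockdown arrays were nearer to each other than the 2 control arrays. ANKRD1 measured 9.25 and 9.32 against 8.80 and 9.06 (-0.35, 95% confidence interval -0.85 to 0.14, adjusted p = 0.618). LATS2 measured 4.89 and 4.77 against 4.32 and 4.11, close to the detection floor (-0.61, 95% confidence interval -1.61 to 0.38, adjusted p = 0.691).

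FJX1 measured 8.44 and 8.76 in SH-EP2 control cells and 9.45 and 9.42 with TRPM7 shRNA. Both knockdown arrays lay above both control arrays, and FJX1 rose 1.79-fold (95% confidence interval 1.5 to 2.13, log2 fold change 0.84, SE 0.12, adjusted p = 0.000295). The call held when any of the 8 arrays was left out, with log2 fold changes of 0.67 to 1.00. FJX1 was thus the called member that moved opposite to CTGF.

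The coactivators themselves did not pass the test in SH-EP2 cells. YAP1 measured 8.61 and 8.57 in control cells and 8.59 and 8.66 with TRPM7 shRNA, with overlapping arrays, and its 95% confidence interval of -0.23 to 0.30 bounds any change at this size. WWTR1 measured 4.51 and 3.55 against 5.30 and 5.18, with a wide gap between the 2 control arrays (1.21, 95% confidence interval 0.20 to 2.22, adjusted p = 0.262). AMOTL2 measured 4.92 and 5.25 against 4.89 and 5.16 (-0.06, 95% confidence interval -0.68 to 0.55). TEAD1 and AMOTL1 were not detected in either group.

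Markers moved beside these members. In SH-EP2 cells with TRPM7 shRNA, the mesenchymal markers COL1A1 (log2 fold change -0.56, adjusted p = 0.00329) and THY1 (-0.48, adjusted p = 0.0029) were lower and CD44 (0.77, adjusted p = 0.0207) higher, and the other 7 of 10 were not called. The summed signal of the list was 65008 and 65066 against 67605 and 68042 in control cells. Of the 10 noradrenergic markers CHGB was called higher (1.01, adjusted p = 0.011), CHGA was called lower while not detected in either group, and the summed signal was 66.7 and 93.9 against 66.5 and 72.0. Of the 9 markers of other cell types 0 were called (1 at an unadjusted p under 0.05), with summed signals of 238.8 and 245.8 against 248.1 and 301.9. Their part in the result was not tested.

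**Figure D3:**
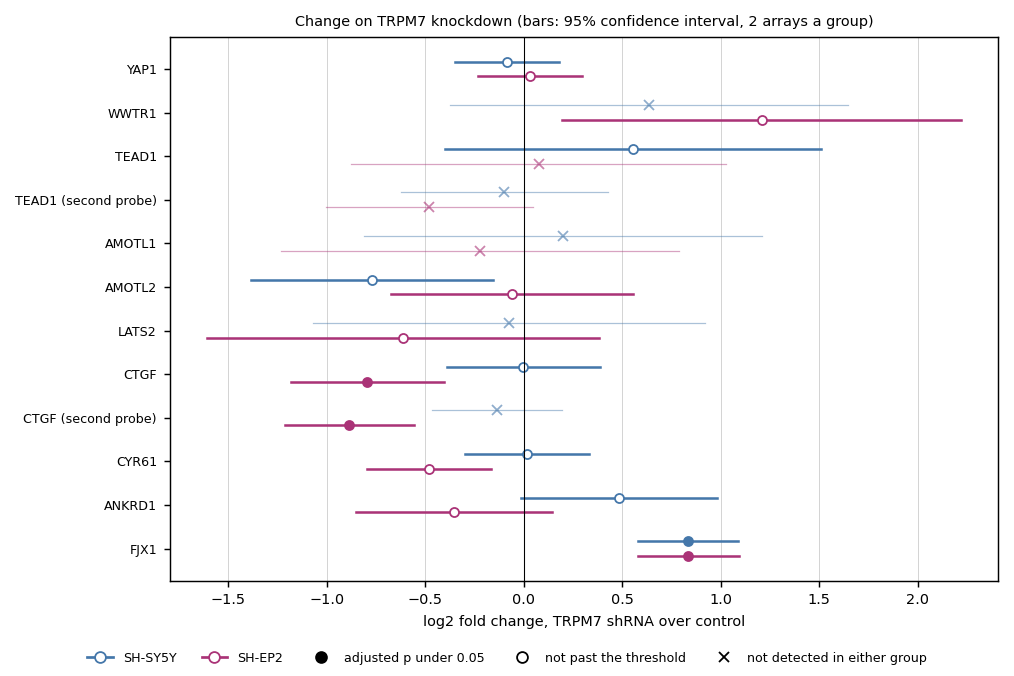
Log2 fold change of TRPM7 shRNA over control (horizontal axis) with its 95% confidence interval for each of the 12 probes, in SH-SY5Y (blue) and SH-EP2 (purple); filled circles passed an adjusted p of 0.05, open circles did not, and crosses mark probes not detected in either group. Both CTGF probes lie below 0 in SH-EP2, and FJX1 lies at 0.84 in both lines.

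In SH-SY5Y cells FJX1 was the only member called on TRPM7 knockdown, beside 2.57% of all genes and 4.64% of the genes detected on at least 2 arrays. The median log2 fold change was 0.11 over the members and 0.00 over all genes. FJX1 measured 7.72 and 7.74 in control cells and 8.59 and 8.54 with TRPM7 shRNA. It rose 1.78-fold (95% confidence interval 1.5 to 2.13, log2 fold change 0.84, SE 0.12, adjusted p = 0.00033), and the call held when any array was left out (0.81 to 0.87). Over the 4 groups FJX1 was lowest in SH-SY5Y control cells and highest in SH-EP2 cells with TRPM7 shRNA, whereas SH-SY5Y cells with TRPM7 shRNA lay within the range of the SH-EP2 control arrays.

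CTGF was dim but detected by its first probe on all 4 SH-SY5Y arrays, at 4.91 and 4.07 in control cells and 4.46 and 4.52 with TRPM7 shRNA. The knockdown arrays lay between the control arrays, and the log2 fold change was -0.00 (95% confidence interval -0.39 to 0.39). This value depends on the wide gap between the control arrays, since it was 0.42 without control replicate 1 and -0.43 without control replicate 2. CYR61 measured 6.48 and 6.65 against 6.84 and 6.33, with overlapping arrays (0.02, 95% confidence interval -0.30 to 0.33). ANKRD1 measured 2.91 and 2.24 against 3.24 and 2.88 and was detected on 1 of these 4 arrays, with TRPM7 shRNA. TEAD1 measured 2.65 and 2.11 against 3.15 and 2.72 and was also detected on 1, at a detection p of 0.0429. LATS2 and WWTR1 were detected on 0 of the 4.

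AMOTL2, an angiomotin-like scaffold that binds YAP at cell junctions, measured 5.0 and 5.15 in SH-SY5Y control cells and 4.07 and 4.55 with TRPM7 shRNA. The log2 fold change of -0.77 (95% confidence interval -1.38 to -0.15) did not pass after adjustment (adjusted p = 0.271), and it was -0.14 without background correction. The groups did not overlap after normalization, but they did in the signals as deposited (145.7 and 131.8 against 132.8 and 143.6). The other 3 groups of AMOTL2 spanned 4.89 to 5.25. YAP1 measured 7.31 and 7.30 against 7.15 and 7.28 (-0.08, 95% confidence interval -0.35 to 0.18, adjusted p = 0.886). With TRPM7 shRNA the noradrenergic markers DBH (-1.2, adjusted p = 0.000637) and STMN2 (-0.58, adjusted p = 0.0223) were lower, and the other 8 of 10 were not called. The summed signal of the 10 was 22297 and 22992 against 31017 and 31028. Of the 10 mesenchymal markers ANXA1 was called higher (0.78, adjusted p = 0.013) and VIM (-0.30, adjusted p = 0.0176) and LGALS1 (-0.36, adjusted p = 0.0205) lower, with a summed signal of 20745 and 21911 against 25235 and 25250. Of the 9 markers of other cell types 0 were called in limma (2 at an unadjusted p under 0.05), with summed signals of 306.4 and 325.3 against 229.9 and 254.1. The part of these markers in the result was not tested.

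Whether the effect of knockdown differed between the lines was tested as an interaction, the SH-EP2 minus the SH-SY5Y log2 fold change. Of the 10 members 0 were called in limma, while 3 (CTGF, CYR61 and ANKRD1) had an unadjusted p under 0.05 and 1 (CTGF) was called under neqc, under normexp and without background correction. Among all genes 1.78% were called, and 3.23% of those detected on at least 2 arrays. For CTGF the difference was -0.79 (95% confidence interval -1.34 to -0.24, adjusted p = 0.206), and for its second probe -0.75 (adjusted p = 0.132). Without SH-SY5Y control replicate 1 the first probe reached -1.21 (adjusted p = 0.00113), and without control replicate 2 it was -0.36 (adjusted p = 0.481). Thus CTGF was lower on knockdown in SH-EP2, but a difference from SH-SY5Y cells did not pass the test. ANKRD1 differed by -0.84 (adjusted p = 0.361) and CYR61 by -0.50 (adjusted p = 0.408). For FJX1 the difference was 0.00 with a 95% confidence interval of -0.36 to 0.36.

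**Figure D4:**
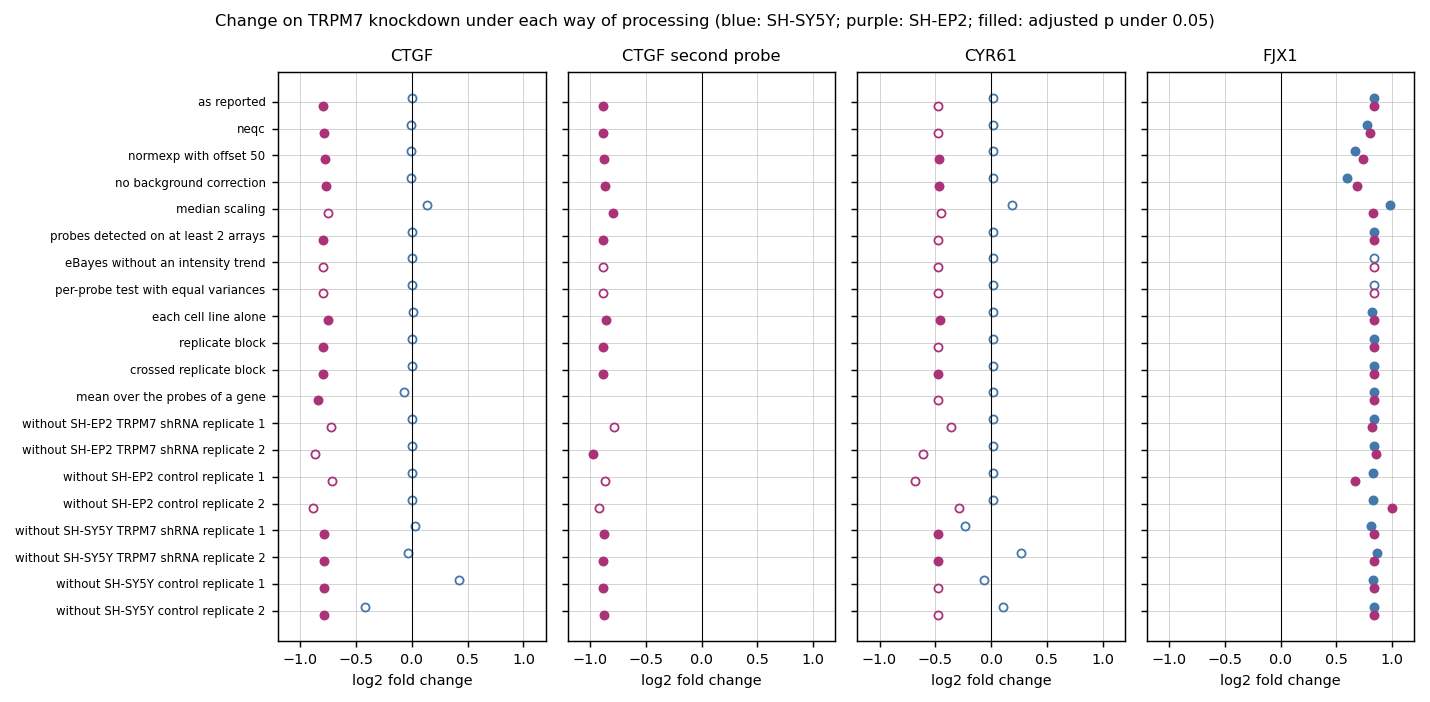
Log2 fold change of TRPM7 shRNA over control (horizontal axis) for both CTGF probes, CYR61 and FJX1 as reported and under each other way of processing (rows), in SH-SY5Y (blue) and SH-EP2 (purple); filled points have an adjusted p under 0.05, and the second CTGF probe is shown for SH-EP2. FJX1 stays between 0.60 and 1.00 in every row, and CTGF in SH-EP2 between -0.89 and -0.71 by its first probe.

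The other genes of the pathway were taken from 3 lists. Of 16 further YAP and TAZ target genes, 4 were called on knockdown in SH-EP2 cells, all of them lower (unadjusted p under 0.05 in 10), beside 1.85% of all genes and 3.35% of those detected on at least 2 arrays called lower. The median log2 fold change was -0.50 against 0.01 over all genes. Of the 10 at an unadjusted p under 0.05, NUAK2 went the other way without being called. It measured 5.78 and 6.30 in control cells and 6.89 and 7.13 with TRPM7 shRNA. Its second probe measured 4.83 and 4.94 against 5.77 and 5.87. TGFB2, a cytokine, measured 7.84 and 7.92 in control cells and 6.65 and 6.65 with TRPM7 shRNA and fell 2.35-fold (adjusted p = 0.0401). RBMS3, an RNA-binding protein, measured 6.11 and 5.92 against 5.36 and 4.89 and fell 1.85-fold (adjusted p = 0.0108). ARHGEF17, a guanine nucleotide exchange factor, measured 8.10 and 7.93 against 7.24 and 7.28 and fell 1.69-fold (adjusted p = 0.0167). All 4 knockdown arrays of these 2 genes lay below their control arrays. IGFBP3, which binds insulin-like growth factors, measured 9.34 and 9.36 against 8.64 and 8.57 and fell 1.68-fold (adjusted p = 5.91e-05). The calls of TGFB2 and ARHGEF17 were lost without any single one of the 4 SH-EP2 arrays (TGFB2 -1.26 to -1.19, ARHGEF17 -0.84 to -0.67), and that of RBMS3 without control replicate 1 (-0.79, adjusted p = 0.128) or TRPM7 shRNA replicate 2 (-0.65, adjusted p = 0.198). A second RBMS3 probe was not called (-0.62, adjusted p = 0.155), whereas the second IGFBP3 probe was (-0.77, adjusted p = 0.000182). With the mean over its probes, including a probe not detected on any array, RBMS3 did not pass (-0.58, adjusted p = 0.293). Without background correction its first probe measured -0.26. Over the other settings TGFB2 ranged from -1.26 to -0.71 and ARHGEF17 from -0.84 to -0.48. Of the 4 promoters TGFB2 held 1 TEAD motif, IGFBP3 and RBMS3 held 0, and no window was matched for ARHGEF17.

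In SH-SY5Y cells 3 of the 16 were called, 1 higher and 2 lower (unadjusted p under 0.05 in 5), beside the 2.57% of all genes and 4.64% of detected genes given above, with a median of 0.06. IGFBP3 fell 1.72-fold there as well (10.67 and 10.57 against 9.82 and 9.85, adjusted p = 3.53e-05). ASAP1, an Arf GTPase-activating protein at focal adhesions, measured 10.81 and 10.76 against 10.16 and 10.14 and fell 1.55-fold (adjusted p = 0.000163), and its other 2 probes fell with it (-0.64 and -0.73). NT5E, the ectonucleotidase CD73, measured 3.50 and 4.37 against 5.24 and 4.96 and rose 2.24-fold (adjusted p = 0.00376). This rise was close to the detection floor, and it was 0.30 on the log2 scale under normexp and 0.20 without background correction, where it did not pass. Its call was also lost with SH-SY5Y fitted alone (1.22, adjusted p = 0.120) and without TRPM7 shRNA replicate 1 (1.01). Between control cells of the lines, 12 of the 16 were higher in SH-EP2 and 3 lower (ASAP1, IGFBP3 and RBMS3). Among all genes 14.2% were higher and 15.9% lower, and among those detected on at least 2 arrays 25.3% and 28.4%. Of these, IGFBP3 and RBMS3 were among the 4 that fell on knockdown in SH-EP2.

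Of 22 Hippo kinases and upstream regulators, 3 were called on knockdown in SH-EP2 cells and 1 in SH-SY5Y cells, where 6.64% and 4.64% of detected genes were called. The count in SH-SY5Y is near that share. At an unadjusted p under 0.05 in limma there were 3 in SH-EP2 and 5 in SH-SY5Y (AMOT, CSNK1D, FAT1, FRMD6 and STK4). The MST kinases STK3 and STK4, SAV1, both MOB1 genes and the TAO kinases did not pass after adjustment in either line. NF2 did not pass either, but was close to the detection floor (detection p 0.0390 to 0.706), and LATS1 was not detected on any array. FRMD6, a FERM-domain protein placed upstream of the kinases, measured 9.66 and 9.59 in SH-SY5Y control cells and 8.34 and 8.21 with TRPM7 shRNA, and fell 2.55-fold (adjusted p = 1.96e-08). In SH-EP2 cells it measured 11.84 and 11.72 against 11.33 and 11.20 and fell 1.43-fold (adjusted p = 0.00176), a call lost without control replicate 1 (-0.46, adjusted p = 0.0612) or TRPM7 shRNA replicate 2 (-0.46, adjusted p = 0.0661). A second FRMD6 probe fell in SH-SY5Y (-1.29, adjusted p = 1.02e-06) and was not called in SH-EP2 (-0.26, adjusted p = 0.342), and the remaining probe was not called in either line. With the mean over the probes, including the remaining dim probe, FRMD6 did not pass in SH-EP2 (-0.55, adjusted p = 0.0563).

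RASSF1, a scaffold that binds MST kinases, measured 7.75 and 7.83 in SH-EP2 control cells and 7.01 and 6.88 with TRPM7 shRNA, and fell 1.79-fold (adjusted p = 0.00148). Its other 2 probes measured in those cells were also lower (-1.01 and -0.97). With the mean over all its probes the call was lost (-0.86, adjusted p = 0.0992). That mean includes a probe not detected in SH-EP2 cells (detection p 0.165 to 0.995). Over the other settings the log2 fold change of RASSF1 in SH-EP2 ranged from -0.91 to -0.50. AMOT, the founding angiomotin and a binding partner of YAP, measured 5.35 and 5.46 against 6.08 and 6.41 and rose 1.79-fold (adjusted p = 0.00353), and the call was lost without TRPM7 shRNA replicate 2 (0.67, adjusted p = 0.0999). Without background correction AMOT passed at a log2 fold change of 0.28. Between control cells, 7 of the 22 were higher in SH-EP2 and 6 lower, beside 25.3% and 28.4% of detected genes.

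Of 7 other TEADs and cofactors, TEAD2 and TEAD4 were detected on both arrays of each group, in contrast to TEAD1. TEAD2 measured 10.39 and 10.29 in SH-EP2 control cells and 10.05 and 10.05 with TRPM7 shRNA and fell 1.23-fold (adjusted p = 0.0487), but this did not pass without any single one of the 4 SH-EP2 arrays (-0.34 to -0.25). VGLL4, which competes with YAP for TEADs, measured 9.30 and 9.29 against 9.97 and 9.87 and rose 1.54-fold (adjusted p = 0.000702), and the call held when any array was left out. VGLL4 lost its call under eBayes without an intensity trend (adjusted p = 0.250) and under a per-probe test (adjusted p = 0.122). These 2 of 7 stand beside 3.67% of all genes and 6.64% of detected genes. In SH-SY5Y cells 0 of the 7 were called (2 at an unadjusted p under 0.05), beside 2.57% and 4.64%. Between control cells 3 were higher in SH-EP2 (TEAD3, TEAD4 and VGLL3, of which VGLL3 was not detected in either line) and 2 lower (TEAD2 and VGLL4). Among all genes 14.2% were higher and 15.9% lower, and among detected genes 25.3% and 28.4%.

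**Figure D5:**
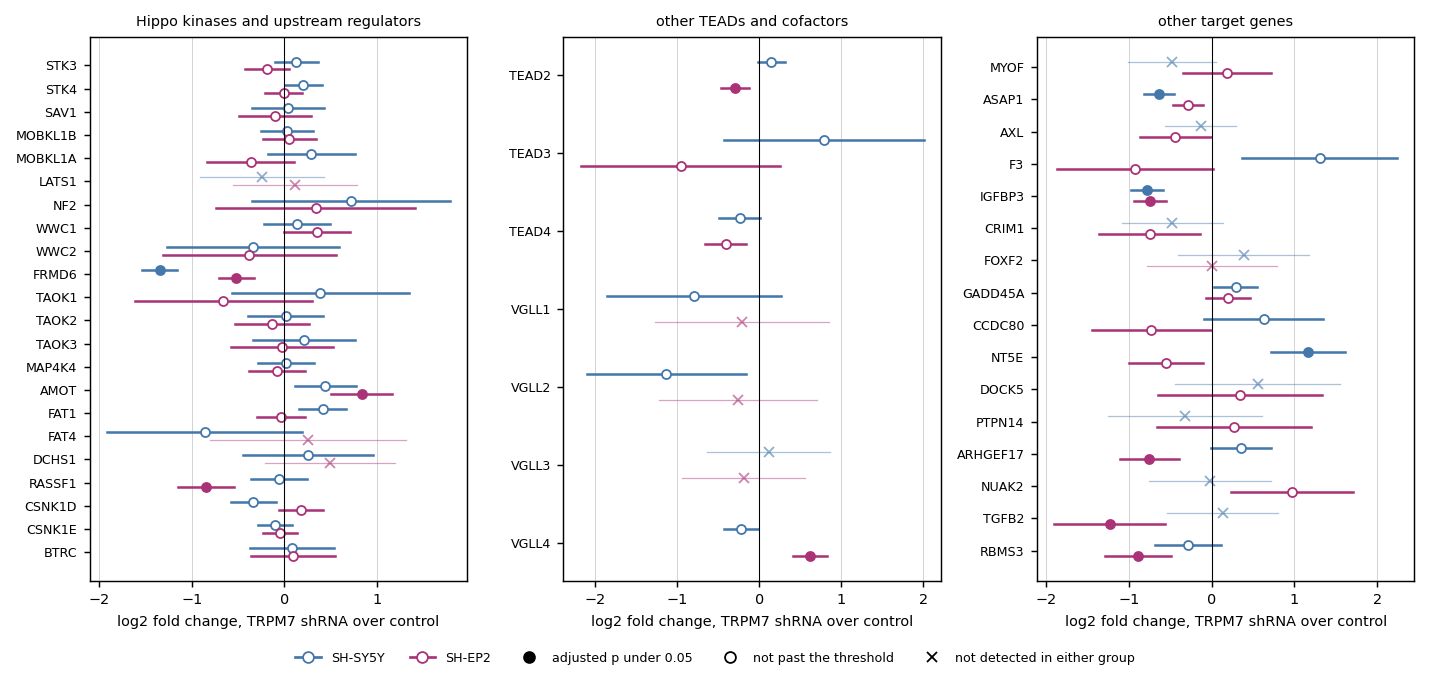
Log2 fold change of TRPM7 shRNA over control (horizontal axes) with its 95% confidence interval for 22 Hippo kinases and upstream regulators (left), 7 other TEADs and cofactors (middle) and 16 other target genes (right), in SH-SY5Y (blue) and SH-EP2 (purple), with symbols as in the plot of the 12 probes; MOBKL1B and MOBKL1A are older names of MOB1A and MOB1B. The filled points are FRMD6 and IGFBP3 in both lines, ASAP1 and NT5E in SH-SY5Y, and RASSF1, AMOT, TEAD2, VGLL4, ARHGEF17, TGFB2 and RBMS3 in SH-EP2.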

How the data were processed

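The authors scanned Illumina HumanHT-12 v4 arrays and deposited bead signal intensities, not normalized between arrays, with detection p-values for 47322 probes, per the labels extracted in GenomeStudio 2011.1. The study's methods name Robust-Multi-Array normalization and no test. Here the intensities of the 8 arrays were background-corrected (RMA model), quantile normalized together and log2-transformed, without filtering probes. limma 3.58.1 in R 4.3.3 was fitted to 4 group means (eBayes with an intensity trend, two-sided, Benjamini-Hochberg over all probes). The procedure was tested on simulated data. Groups came from the labels' cell line and shRNA. Each gene stands for its probe of highest mean log2 signal. For a bound, the bright group's mean was set against a floor, which on each array is the dimmest detected probe, or the undetected probe itself if brighter.

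The members, pathway lists and markers were chosen with earlier results of these data known, so they are no independent evidence. Members and TRPM7 are all named, as are pathway genes called on knockdown and detected on both arrays of the brighter group. Second probes, markers, NUAK2 and genes in counts of 5 or fewer were named after their values were seen. Other settings tried were normexp (offset 50), neqc (offset 16), uncorrected signals (floored at 1), median scaling, a filter for detection on 2 or more arrays, eBayes without the trend, a per-probe test, each line alone, a replicate block, the mean over probes and leaving out each array. Same-numbered replicates did not deviate together (correlation of replicate differences -0.11 in SH-SY5Y and -0.0045 in SH-EP2 over 14577 probes), and the reported fit does not pair arrays by number. Such a correlation cannot tell whether same-numbered arrays shared a culture. RefSeq annotation of GRCh38.p14 gave current names and promoter sequences only.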

Additional observations from a re-analysis of the deposited data

Results flagged for a closer look

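By the interaction term, the effect of TRPM7 knockdown differed between the lines for 4 pathway genes and for 0 of the 10 members. In each case the value is the SH-EP2 minus the SH-SY5Y log2 fold change. Over all genes 1.78% were called, and 3.23% of those detected on at least 2 arrays. All 4 calls were lost under eBayes without the trend (adjusted p = 0.215 to 0.360) and under the per-probe test (adjusted p = 0.109 to 0.401). FRMD6 differed by 0.83 (adjusted p = 0.000962), being lower on knockdown in both lines and more so in SH-SY5Y, and its second probe by 1.03 (adjusted p = 0.00136). With the mean over the FRMD6 probes the difference was 0.39 and did not pass (adjusted p = 0.514). That mean includes the remaining dim probe (2.32 and 3.29 against 2.36 and 2.94 in SH-SY5Y cells). VGLL4 differed by 0.84 (adjusted p = 0.0019), with 0.62 in SH-EP2 and -0.22 in SH-SY5Y, the latter not past the test. NT5E differed by -1.72 (adjusted p = 0.00325), from 1.17 in SH-SY5Y to -0.55 in SH-EP2, the latter not past the test. Its SH-SY5Y control signals (3.50 and 4.37) were close to the detection floor, and the difference ranged from -2.16 to -0.68 over the other settings. ARHGEF17 differed by -1.11 (adjusted p = 0.0218), from 0.35, not past the test, in SH-SY5Y to -0.75 in SH-EP2. The difference for ARHGEF17 did not pass without any single one of the SH-EP2 arrays or without SH-SY5Y TRPM7 shRNA replicate 1 (adjusted p = 0.0525 to 0.152).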

How the results depend on the processing

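The difference between control cells of the lines gave 7 members higher in every setting, but its log2 size ranged from 5.15 to 8.92 for CTGF, 2.70 to 7.05 for ANKRD1, 4.44 to 5.78 for CYR61, 0.45 to 3.28 for LATS2 and 0.38 to 3.03 for WWTR1, lowest without background correction. On knockdown in SH-SY5Y, FJX1 was the called member in all settings except eBayes without the trend and the per-probe test, which gave 0 members in both lines. The pathway genes named as called on knockdown, in either line or in the interaction, also lost their calls without the trend. In the per-probe test only IGFBP3 in SH-EP2 kept its call. In SH-EP2, 4 members were called without background correction (ANKRD1, CTGF, CYR61 and FJX1), 3 under normexp (CTGF, CYR61 and FJX1), 1 under median scaling (FJX1), 5 with the line fitted alone (ANKRD1, CTGF, CYR61, FJX1 and WWTR1), and 1 to 3 when an array was left out. For the interaction 1 member (CTGF) was called under neqc, normexp and no background correction, and 0 to 1 when an array was left out. With the replicate block the counts were 1, 2, 0 and 7, and TEAD2 and TGFB2 lost their calls in SH-EP2 (adjusted p = 0.10 and 0.0744) and ARHGEF17 that of the interaction (adjusted p = 0.0553). Under median scaling CTGF, TGFB2 and TEAD2 lost theirs in SH-EP2 (adjusted p = 0.123, 0.0566 and 0.113), TEAD2 also without background correction (adjusted p = 0.0573), and FRMD6, RASSF1, RBMS3 and TEAD2 with the mean over probes (adjusted p = 0.0563, 0.0992, 0.293 and 0.0606). A block with crossed numbers, chosen after seeing the data, gave 1, 3, 1 and 7.

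Several values close to 0 changed sign. Median scaling gave 0.092 for YAP1, 0.14 for CTGF and 0.12 for RASSF1 in SH-SY5Y, -0.082 for YAP1, -0.15 for FJX1 and -0.10 for IGFBP3 in the interaction, and -0.11 for AMOTL2 between the lines. With the line alone CTGF in SH-SY5Y was 0.0053, and without background correction the interaction of AMOT was -0.052. Leaving out an array moved CTGF in SH-SY5Y between -0.43 and 0.42, CYR61 there between -0.23 and 0.27, AMOTL2 in SH-EP2 between -0.23 and 0.11 and between the lines between -0.16 and 0.18, and the interactions of FJX1 between -0.16 and 0.17 and of IGFBP3 between -0.019 and 0.084. Median scaling shifted the median of all probes by 0.09 in SH-SY5Y and turned the split of called probes there from 382 higher and 617 lower to 553 and 284. Without the trend 64 probes were called in SH-SY5Y and 100 in SH-EP2, against 999 and 1429. The causes were not tested. Signal over background limits TEAD1, AMOTL1, WWTR1 and LATS2.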
